A study of Mus musculus with 33 samples.

Results

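Lungs taken 3 h after a single airway dose of AAV-hSPBTLR9i were compared with lungs taken 3 h after a single dose of AAV-hSPB, over every endogenous gene of an nCounter panel. The groups were taken from the labels: 6 lung samples, 3 per vector, were compared of 33 in the series, across 773 mouse genes. nCounter tags each RNA molecule with a fluorescent barcode and counts the barcodes, with no amplification step, and the values used are the authors' normalized counts on a log2 scale, so that a difference of 1 is a doubling or a halving. All lungs came from CCSP-rtTAtg/(teto)7Sftpb/Sftpb-/- animals of FVB/N strain origin, which lack both of their own copies of Sftpb and depend on a transgene. In these mice the CCSP promoter drives the doxycycline-dependent activator rtTA in airway epithelium, and rtTA with doxycycline drives Sftpb, so the tissue is that of a rescued knockout and not of a wild-type lung. The AAV-hSPBTLR9i mice received that vector at day 0, the AAV-hSPB mice received the vector whose name lacks TLR9i, and PBS mice received 1x PBS, all into the trachea. Each group held 2 female samples and 1 male sample of right lung, and replicate 3 was the male sample in both vector groups. Ages, and whether these mice were on doxycycline at 3 h, are not given in the sources used here. Whether every sample is a different mouse is not stated, so the p-values cover the spread between lung samples, which may be technical in part. Fewer cells of a type and less RNA per cell cannot be told apart in whole-lung RNA.

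Surfactant protein B keeps the air spaces of the lung from collapsing, and adeno-associated virus (AAV) can carry a human copy of its gene (hSPB) into lung cells. Toll-like receptor 9 (TLR9) sits in endosomes and binds DNA rich in unmethylated CpG, which AAV genomes can carry. Bound TLR9 signals through the adaptor MyD88 to IRF7, which switches on type I interferon genes in plasmacytoid dendritic cells, and to NF-kB, which switches on cytokine and chemokine genes. TLR9i is read here, from the name alone, as a TLR9 inhibitor in the vector. The comparison asks how the lung's early RNA levels differ when it is present.

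Total recovered count ran from 1156612 to 1348095 in the AAV-hSPBTLR9i lungs, from 1362535 to 1710291 in the AAV-hSPB lungs and from 1197432 to 1490416 in the PBS lungs. The AAV-hSPBTLR9i and AAV-hSPB ranges do not overlap, the mean total was 0.836 of that in AAV-hSPB lungs (two-sided exact permutation p = 0.1, the smallest that 3 against 3 allow), and the part of depth in the results was not tested. Between 57 and 69 genes per AAV-hSPBTLR9i lung, and between 36 and 53 per AAV-hSPB lung, had fewer than 20 counts. Of 10 alveolar and airway epithelial markers chosen for the check, only Cdh1 was measured, at 12.67 ± 0.13 in AAV-hSPBTLR9i lungs and 12.72 ± 0.07 in AAV-hSPB lungs (SD, n = 3 each). Ager, a receptor of alveolar type I cells, stood at 15.29 ± 0.18 in AAV-hSPBTLR9i lungs and 15.30 ± 0.13 in AAV-hSPB lungs. The lung epithelial chemokine gene Cxcl15, chosen after its values were seen, stood at 15.06 ± 0.20 in AAV-hSPBTLR9i lungs and 14.88 ± 0.11 in AAV-hSPB lungs. The PBS replicate 1 lung correlated least with the other 3 h lungs, with a median Pearson r of 0.973 across genes against 0.983 to 0.987 for the others.

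No gene separated the vectors at an adjusted p under 0.05. Of 773 genes, 0 were higher (0% of the panel) and 0 were lower (0%) in AAV-hSPBTLR9i lungs than in AAV-hSPB lungs by limma with Benjamini-Hochberg adjustment, and the smallest adjusted p was 0.99995. At an unadjusted limma p under 0.05 there were 12 genes (1.55%), 5 higher and 7 lower, and voom on the recovered counts gave 0 adjusted and 11 unadjusted. Of those 12 genes, 10 had a mean log2 level under 6, or 64 normalized counts, in both groups. The median difference over all genes was 0.02, 83.2% of genes differed by less than 0.25, and 2 differed by more than 1. The 95% interval of the difference lay inside ±1 for 658 genes (85.1%) and inside ±0.5 for 351 (45.4%). For the 115 genes whose interval was not inside ±1, it admits a doubling or a halving, and 49 of these averaged under 64 normalized counts in both groups.

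**Figure D1:**
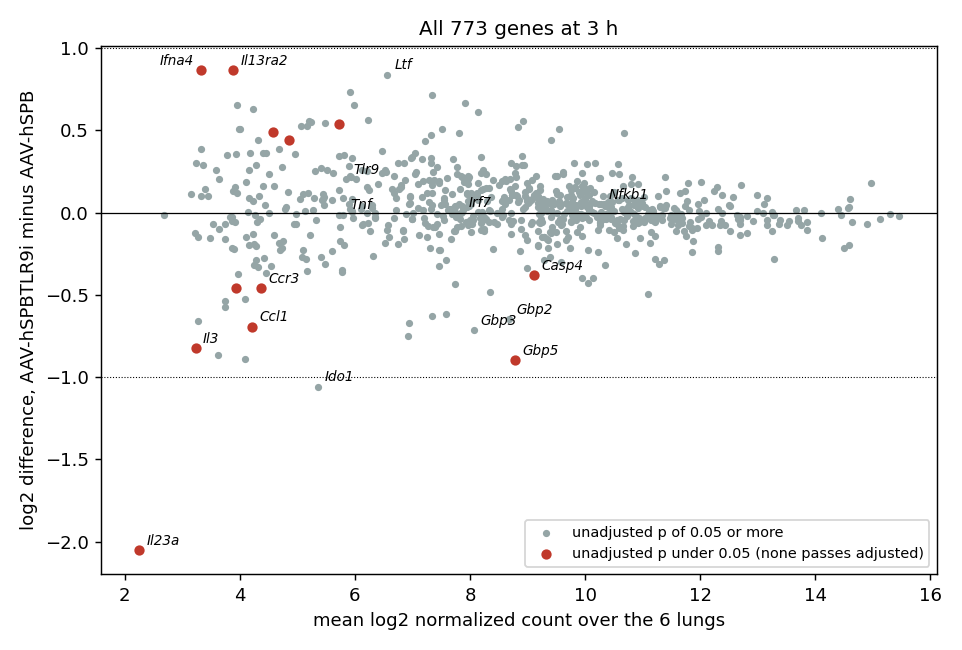
Log2 difference of AAV-hSPBTLR9i minus AAV-hSPB (vertical axis) against the mean log2 normalized count over the 6 lungs (horizontal axis), 1 point per gene. Red points mark the 12 genes with an unadjusted limma p under 0.05, dotted lines mark a doubling and a halving, and the points narrow around 0 as the level rises.

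All 3 AAV-hSPBTLR9i lungs stood above all 3 AAV-hSPB lungs in 22 genes (2.85%) and below them in 12 (1.55%). Those counts are the background against which a gene without overlap is read below. The difference was below 0 for 347 genes (44.9%).

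Tlr9, which codes for the receptor itself, had log2 levels of 6.19, 5.94 and 5.70 in AAV-hSPBTLR9i lungs against 5.39, 5.76 and 6.07 in AAV-hSPB lungs. The groups overlapped, and the difference was 0.20 ± 0.20 (limma SE; 95% interval −0.26 to 0.66). Tlr7, the endosomal receptor for single-stranded RNA, differed by 0.23 (−0.40 to 0.85), and Tlr2, the cell-surface receptor for lipoproteins, by 0.15 (−0.52 to 0.82). Myd88, the adaptor downstream of TLR9, had 9.10, 9.27 and 8.86 in AAV-hSPBTLR9i lungs against 9.15, 9.47 and 9.21 in AAV-hSPB lungs. These values overlapped as well, with a difference of −0.20 (−0.56 to 0.16). Ticam1, the adaptor of TLR3, differed by 0.17 (−0.18 to 0.53), and Syk, a kinase downstream of several immune receptors, by 0.30 (−0.14 to 0.73), the highest value of the list. Cd14, a co-receptor that helps load several Toll-like receptors, had the lowest at −0.21 (−0.93 to 0.51). Of 27 genes listed for TLR9 and MyD88 signalling, 22 were measured, 0 passed in either direction, and the interval of every one lay inside ±1, against 85.1% of all genes. Their median difference was 0.04, beside 0.02 over all genes, and −0.01 without AAV-hSPB replicate 3. Replicate 3 was the only male lung of each vector group, so here and below its omission also unbalances the sexes. In the list of 12 measured sensors and adaptors for DNA and RNA in the cytosol, 0 passed, and 11 intervals lay inside ±1.

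Irf7, the transcription factor that TLR9 uses to induce type I interferon, had log2 levels of 8.56, 7.61 and 7.38 in AAV-hSPBTLR9i lungs against 7.89, 8.26 and 7.39 in AAV-hSPB lungs. Lungs of 1 group differed among themselves by more than the groups did, and the difference was 0.00 (−0.89 to 0.90). The interferon genes themselves had low counts. Ifnb1, the interferon-beta gene, had between 2.91 and 3.63 in AAV-hSPBTLR9i lungs against 2.46 to 3.49 in AAV-hSPB lungs, with a difference of 0.12 (−0.71 to 0.95). Ifna4, an interferon-alpha gene, had 14, 14 and 10 recovered counts in AAV-hSPBTLR9i lungs against 8, 11 and 6 in AAV-hSPB lungs. Its normalized levels did not overlap (difference 0.87, 0.24 to 1.50, limma unadjusted p = 0.013), and all of these counts are under 20. Of 10 measured interferon and interferon receptor genes, 0 passed and 1 had an unadjusted p under 0.05.

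Among NF-kB genes, Nfkb1, which codes for the p105 and p50 subunit, had 10.21, 10.40 and 10.31 in AAV-hSPBTLR9i lungs against 10.25, 10.20 and 10.31 in AAV-hSPB lungs. The groups overlapped, and the difference was 0.05 (−0.17 to 0.27). Nfkbia, the inhibitor that NF-kB itself induces, differed by 0.05 (−0.50 to 0.60). Of 11 measured NF-kB subunits and inhibitors, 0 passed and every interval lay inside ±1. The same held for the 12 measured immediate early and MAP kinase genes.

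Of the early cytokines, Tnf, the tumour necrosis factor gene, had 5.81, 5.72 and 5.82 in AAV-hSPBTLR9i lungs against 5.49, 6.18 and 5.71 in AAV-hSPB lungs. The AAV-hSPBTLR9i values lay inside the AAV-hSPB range, and the difference was −0.01 (−0.48 to 0.46). Il6, a fever and acute-phase cytokine gene, had 5.69, 5.72 and 5.53 in AAV-hSPBTLR9i lungs against 5.84, 7.10 and 4.52 in AAV-hSPB lungs. Here the spread came from the AAV-hSPB lungs, replicate 2 the highest and replicate 3 the lowest, and the interval of the difference (−0.17) ran from −1.41 to 1.06. Il1b differed by 0.15 (−0.61 to 0.92), the anti-inflammatory Il10 by 0.07 (−0.53 to 0.67), Il12b by 0.03 (−0.45 to 0.50), and Csf2, which codes for the growth factor GM-CSF that alveolar macrophages need, by 0.20 (−0.09 to 0.50). Ptgs2, the inducible cyclooxygenase of prostaglandin synthesis, differed by −0.40 (−1.47 to 0.68). Of 17 measured acute cytokines, 0 passed and 12 intervals lay inside ±1; the list's median was 0.03, and its mean, which Il23a pulls down, was −0.05. Without AAV-hSPB replicate 2 the median was 0.18.

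**Figure D2:**
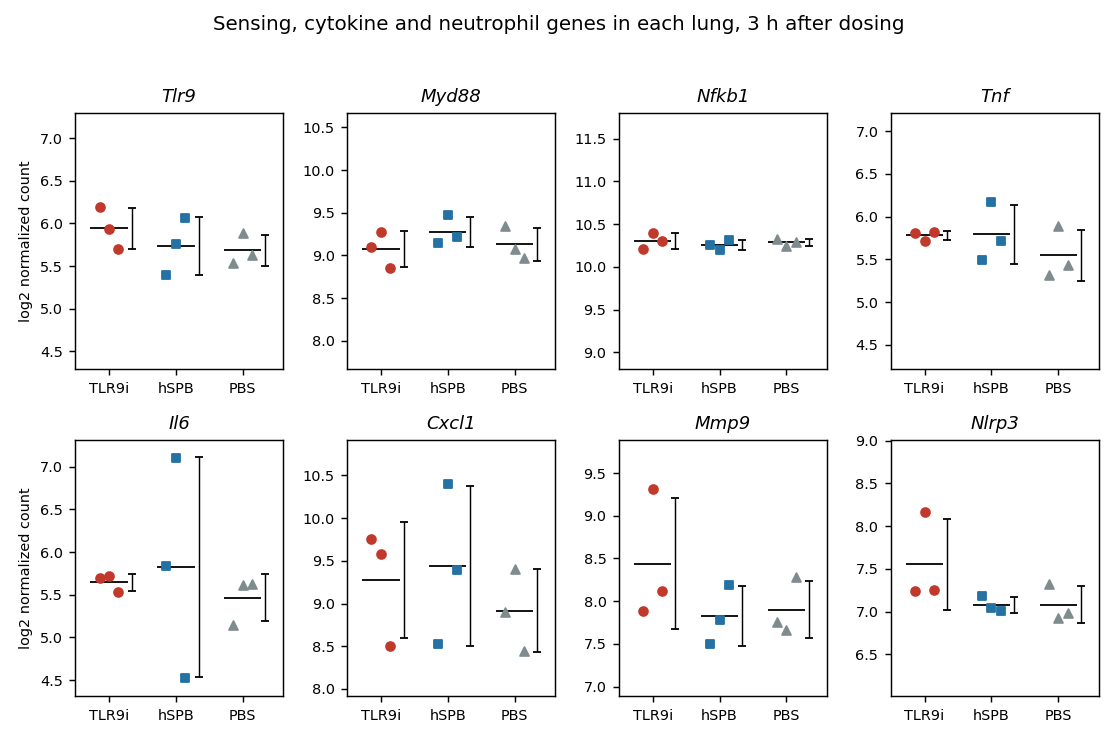
Log2 normalized count (vertical axes, each spanning at least 3 units) of 8 sensing, cytokine and neutrophil genes in each lung, for AAV-hSPBTLR9i (TLR9i, red circles), AAV-hSPB (hSPB, blue squares) and PBS (grey triangles). Horizontal bars are means and vertical bars are SDs (n = 3). The vector groups overlap in Tlr9, Myd88, Nfkb1, Tnf, Il6, Cxcl1 and Mmp9, and do not overlap in Nlrp3, where AAV-hSPBTLR9i replicate 2 is the highest lung.

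Chemokine genes had wider intervals. Cxcl1, a neutrophil attractant, had 9.76, 9.58 and 8.50 in AAV-hSPBTLR9i lungs against 8.53, 10.41 and 9.39 in AAV-hSPB lungs, and differed by −0.16 (−1.34 to 1.01). Both groups held a lung near the bottom of the range, and the interval admits more than a doubling either way. Cxcl2, a further neutrophil attractant, differed by 0.24 (−0.69 to 1.17). The monocyte attractant Ccl2 differed by −0.11 (−0.87 to 0.66), and Ccl3 and Ccl4, which attract macrophages and other leukocytes, by −0.31 (−0.96 to 0.34) and 0.01 (−0.68 to 0.69). Ccl8, a monocyte chemokine, had 7.16, 6.31 and 6.15 in AAV-hSPBTLR9i lungs against 7.59, 7.57 and 6.71 in AAV-hSPB lungs. AAV-hSPBTLR9i replicate 1 lay inside the AAV-hSPB range, and the difference was −0.75 (−1.54 to 0.04; limma unadjusted p = 0.059). Ccl17 and Ccl22, ligands of CCR4 made by dendritic cells and macrophages, differed by −0.62 (−1.24 to 0.01) and −0.63 (−1.31 to 0.05). Of 16 monocyte chemokine and receptor genes, all measured, 0 passed, 10 had a difference below 0 and the median was −0.10.

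**Figure D3:**
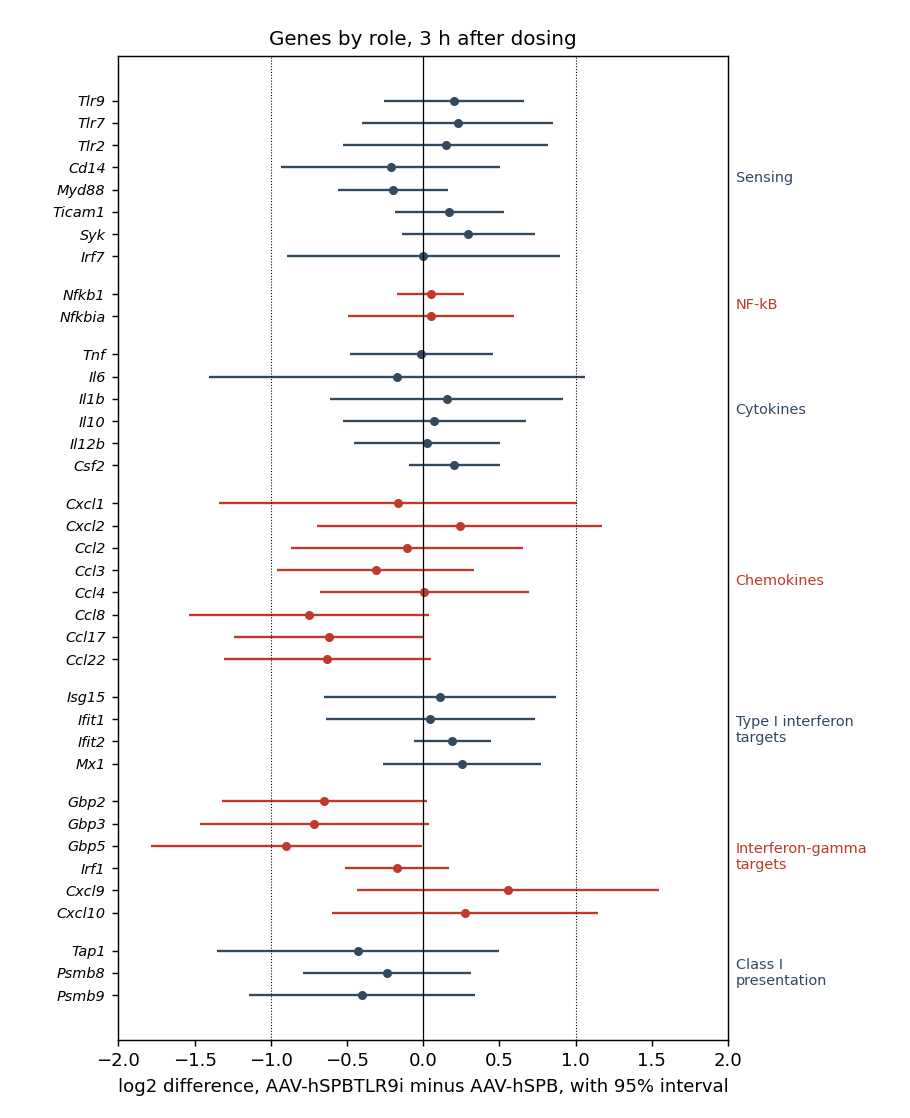
Log2 difference of AAV-hSPBTLR9i minus AAV-hSPB (horizontal axis) with its 95% interval from limma for genes grouped by role; the 2 colours only separate the groups, and dotted lines mark a halving and a doubling. Intervals of the sensing and NF-kB genes lie inside the dotted lines, while those of Il6, several chemokine genes, Gbp2, Gbp3, Gbp5, Cxcl9, Cxcl10, Tap1 and Psmb9 reach past them.

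Genes that type I interferon induces were split between the directions. Isg15, a ubiquitin-like antiviral protein, had 8.57, 8.11 and 7.51 in AAV-hSPBTLR9i lungs against 7.84, 8.29 and 7.72 in AAV-hSPB lungs, a difference of 0.11 (−0.65 to 0.87). Ifit1, which binds foreign RNA, differed by 0.05 (−0.64 to 0.73), and Mx1, a GTPase against viruses, by 0.25 (−0.27 to 0.78). Ifit2, a relative of Ifit1, had 8.79, 8.64 and 8.72 in AAV-hSPBTLR9i lungs against 8.59, 8.43 and 8.55 in AAV-hSPB lungs. Those groups did not overlap, as in 2.85% of all genes, with a difference of 0.19 (−0.06 to 0.45). Of 52 listed interferon-stimulated genes, 39 were measured, 0 passed, 23 had a difference below 0 and 16 above it, and the median was −0.05. It ran from −0.16 without AAV-hSPBTLR9i replicate 1 to 0.02 without AAV-hSPB replicate 2 when 1 lung was left out.

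The members with the lowest values on that list were the guanylate-binding protein genes Gbp3 and Gbp2, whose relative Gbp5 stands on the interferon-gamma-inducible list. These GTPases, induced mainly by interferon-gamma, attack the membranes of microbes inside cells. The 250 bases before the start of Gbp2, Gbp3 and Gbp5, and of Isg15 for comparison, are shown because all 4 are interferon targets and the Gbp genes had the lower values. They are from RefSeq on build GRCm38.p6, 5′ to 3′ on the gene's own strand, and capitals mark matches on either strand to GAAANNGAAA, the core of the element that interferon-activated factors bind. The Gbp2 promoter is chr3:142620413-142620662, the Gbp3 promoter chr3:142559794-142560043 (the start that holds the motif, of 2 listed), and the Gbp5 promoter chr3:142496684-142496933, all on the plus strand. The Isg15 promoter is chr4:156200819-156201068 on the minus strand.
Gbp2: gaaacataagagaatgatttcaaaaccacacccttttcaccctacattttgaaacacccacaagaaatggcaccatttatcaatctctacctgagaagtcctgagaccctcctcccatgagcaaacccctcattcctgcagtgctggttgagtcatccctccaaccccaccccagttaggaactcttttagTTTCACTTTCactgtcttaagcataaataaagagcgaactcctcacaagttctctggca
Gbp3: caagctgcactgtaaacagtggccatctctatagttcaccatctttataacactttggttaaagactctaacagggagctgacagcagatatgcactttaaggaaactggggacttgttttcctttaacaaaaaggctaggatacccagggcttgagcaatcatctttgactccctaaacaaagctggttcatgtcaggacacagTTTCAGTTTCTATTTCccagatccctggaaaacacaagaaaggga
Gbp5: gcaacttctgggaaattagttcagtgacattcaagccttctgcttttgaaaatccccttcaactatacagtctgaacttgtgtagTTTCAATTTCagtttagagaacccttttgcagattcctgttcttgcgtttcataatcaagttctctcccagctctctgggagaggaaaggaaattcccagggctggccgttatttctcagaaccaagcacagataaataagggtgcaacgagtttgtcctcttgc
Isg15: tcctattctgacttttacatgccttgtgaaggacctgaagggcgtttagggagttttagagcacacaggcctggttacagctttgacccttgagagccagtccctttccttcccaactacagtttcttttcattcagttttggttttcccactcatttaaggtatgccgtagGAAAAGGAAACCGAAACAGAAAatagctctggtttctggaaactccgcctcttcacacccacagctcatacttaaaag
Gbp2 and Gbp5 held 1 match each, Gbp3 2 overlapping matches and Isg15 3 overlapping matches. Of all 32851 RefSeq promoters listed, 978 held a match in these 250 bases (2.98%), and of the 593 panel genes with a promoter there 46 did (7.76%). The first share counts promoters, while the second and those of the lists below count genes with a match at any listed start. The first is therefore not a like-for-like background. Of 8 interferon-gamma-inducible genes with a promoter, 5 held a match (Cxcl10, Gbp2, Gbp3, Gbp5 and Socs1). The median difference was −0.65 in those with a match and −0.17 in those without. The Gbp genes, shown here for their lower values, make up most of the genes with a match. The medians of this list therefore cannot tell whether the motif goes with a lower value. Of 31 interferon-stimulated genes with a promoter, Gbp2, Gbp3 and Isg15 among them, 11 held a match (35.5%), with a median difference of 0.02 in those with a match and −0.07 in those without. A match is a description of letters and not a measured binding site.

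Gbp2 had log2 levels of 8.75, 8.42 and 7.88 in AAV-hSPBTLR9i lungs against 9.01, 9.35 and 8.64 in AAV-hSPB lungs. AAV-hSPBTLR9i replicate 1 lay inside the AAV-hSPB range and the other lungs below it, and the difference was −0.65 ± 0.29 (limma SE; 95% interval −1.32 to 0.03; unadjusted p = 0.058). With sex as a covariate the Gbp2 difference was again −0.65, with a limma unadjusted p of 0.0017. That was the smallest unadjusted p of the panel under this alternative, and the adjusted p was 0.99995. Gbp3 had 8.40, 7.54 and 7.18 in AAV-hSPBTLR9i lungs against 8.22, 8.90 and 8.14 in AAV-hSPB lungs. AAV-hSPBTLR9i replicate 1 was inside the AAV-hSPB range here too and the other lungs below it, with a difference of −0.72 (−1.47 to 0.04). Gbp5 had 9.16, 8.17 and 7.69 in AAV-hSPBTLR9i lungs against 8.76, 9.84 and 9.12 in AAV-hSPB lungs. Its difference of −0.90 (−1.79 to −0.01; limma unadjusted p = 0.048, adjusted p = 1.00) corresponds to 0.537-fold with an interval of 0.29 to 0.994. Again replicate 1 of the AAV-hSPBTLR9i lungs lay inside the AAV-hSPB range. With 1 lung left out at a time the Gbp5 difference ran from −1.31 without AAV-hSPBTLR9i replicate 1 to −0.57 without AAV-hSPBTLR9i replicate 3, and that of Gbp2 from −0.85 to −0.41 on the same omissions.

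Ido1, an interferon-gamma-induced enzyme that breaks down tryptophan and was chosen after its values were seen, had 5.69, 4.27 and 4.50 in AAV-hSPBTLR9i lungs against 5.71, 6.77 and 5.16 in AAV-hSPB lungs. Its difference of −1.06 (−2.17 to 0.05) was the lowest of the interferon-gamma-inducible list, and the replicate 1 lungs of both groups were nearly equal. Casp4, the inflammatory caspase that senses bacterial lipopolysaccharide in the cytosol, had 8.99, 9.13 and 8.66 in AAV-hSPBTLR9i lungs against 9.14, 9.46 and 9.32 in AAV-hSPB lungs. These lungs did not overlap, as in 1.55% of all genes, with a difference of −0.38 (−0.73 to −0.03; limma unadjusted p = 0.037). Ifng, the interferon-gamma gene, was low in both groups, at 4.28 ± 0.24 in AAV-hSPBTLR9i lungs and 4.65 ± 0.27 in AAV-hSPB lungs (SD, n = 3 each), and differed by −0.37 (−0.83 to 0.09). Irf1, an early interferon-gamma target, differed by −0.17 (−0.52 to 0.17).

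The chemokine genes of the list had the opposite sign, though that of Cxcl10 turned to −0.02 without AAV-hSPBTLR9i replicate 1. Cxcl9, which draws activated T cells, had 6.47, 4.96 and 4.98 in AAV-hSPBTLR9i lungs against 4.84, 5.38 and 4.52 in AAV-hSPB lungs. AAV-hSPBTLR9i replicate 1 was the high lung, and the difference was 0.56 (−0.43 to 1.55), or 0.06 without that lung. Its relatives Cxcl10 and Cxcl11 differed by 0.27 (−0.60 to 1.15) and 0.51 (−0.01 to 1.03). Of 18 listed interferon-gamma-inducible genes, 12 were measured, 0 passed, 8 were below 0 (against 44.9% of all genes), the median was −0.19 and 4 intervals lay inside ±1. With 1 lung left out the median ran from −0.37 without AAV-hSPBTLR9i replicate 1 to −0.08 without AAV-hSPBTLR9i replicate 3. The list's mean level in AAV-hSPBTLR9i lungs was 7.66, 6.92 and 6.94, against 7.34, 7.63 and 7.10 in AAV-hSPB lungs and 7.10, 7.00 and 7.05 in PBS lungs. The AAV-hSPBTLR9i replicate 1 and AAV-hSPB replicate 2 lungs were the highest, and the vector groups overlapped.

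Natural killer (NK) cells are a source of interferon-gamma, and their markers varied between the same lungs. Ncr1, a receptor of NK cells chosen after its values were seen, had 9.08, 7.60 and 7.63 in AAV-hSPBTLR9i lungs against 9.11, 9.10 and 7.54 in AAV-hSPB lungs, and 8.55, 7.69 and 8.41 in PBS lungs. Of 6 NK markers 5 were measured, each reaching 20 counts in a lung of every group, and their summed normalized counts ran from 1158 to 1932 in AAV-hSPBTLR9i lungs, from 861 to 2188 in AAV-hSPB lungs and from 1099 to 2042 in PBS lungs. The part of NK cells in the interferon-gamma values was not tested.

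**Figure D4:**
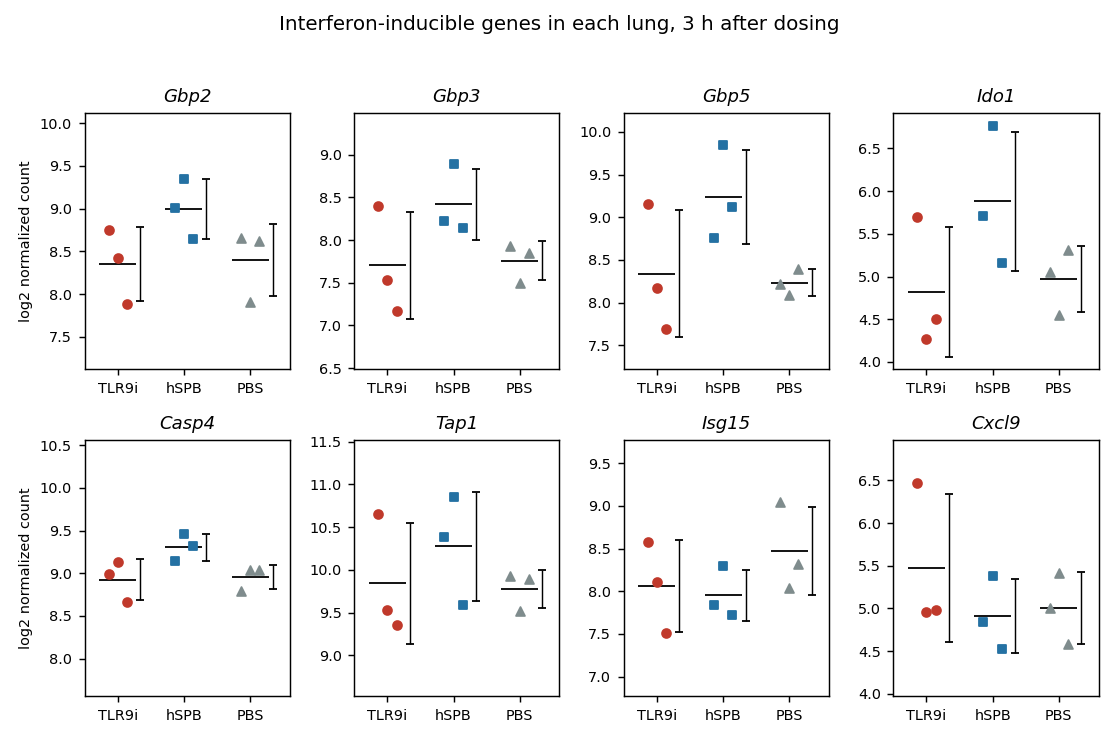
Log2 normalized count (vertical axes, each spanning at least 3 units) of 8 interferon-inducible genes in each lung, for AAV-hSPBTLR9i (TLR9i, red circles), AAV-hSPB (hSPB, blue squares) and PBS (grey triangles), replicates 1 to 3 drawn left to right. Horizontal bars are means and vertical bars are SDs (n = 3). In Gbp2, Gbp3, Gbp5 and Ido1 the AAV-hSPBTLR9i replicate 1 lung overlaps the AAV-hSPB lungs, while Casp4 shows no overlap between the vectors.

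The genes of MHC class I presentation, which cut proteins into peptides and display them to CD8 T cells, all had differences below 0. Of 17 listed, 11 were measured, 0 passed and 11 were below 0, where 44.9% of all genes were; the differences ran from −0.43 to −0.06 with a median of −0.22. Tap1, a subunit of the peptide transporter, had 10.66, 9.52 and 9.35 in AAV-hSPBTLR9i lungs against 10.38, 10.85 and 9.59 in AAV-hSPB lungs. The vectors overlapped over most of their range, and the difference was −0.43 (−1.36 to 0.50). Psmb9 and Psmb8, subunits of the immunoproteasome, differed by −0.40 (−1.14 to 0.34) and −0.24 (−0.79 to 0.31). The list's mean level was 10.25, 9.95 and 9.70 in AAV-hSPBTLR9i lungs against 10.41, 10.52 and 9.69 in AAV-hSPB lungs and 10.31, 9.72 and 10.00 in PBS lungs. All were read from the same lungs, so the shared sign is not 11 separate observations, and the AAV-hSPB group itself held both the highest and the lowest of the 6 lungs. The male lungs (replicate 3 of each vector and PBS replicate 2) stood below every female lung. The same split held for the interferon-stimulated list, at 8.75, 8.85 and 8.87 in the male lungs against 8.98 to 9.27 in the female lungs. It also held for the cytotoxic and NK cell list. The part of sex in these levels was not tested. Without AAV-hSPB replicate 2 the median was −0.09, and without AAV-hSPB replicate 3 it was −0.45.

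**Figure D5:**
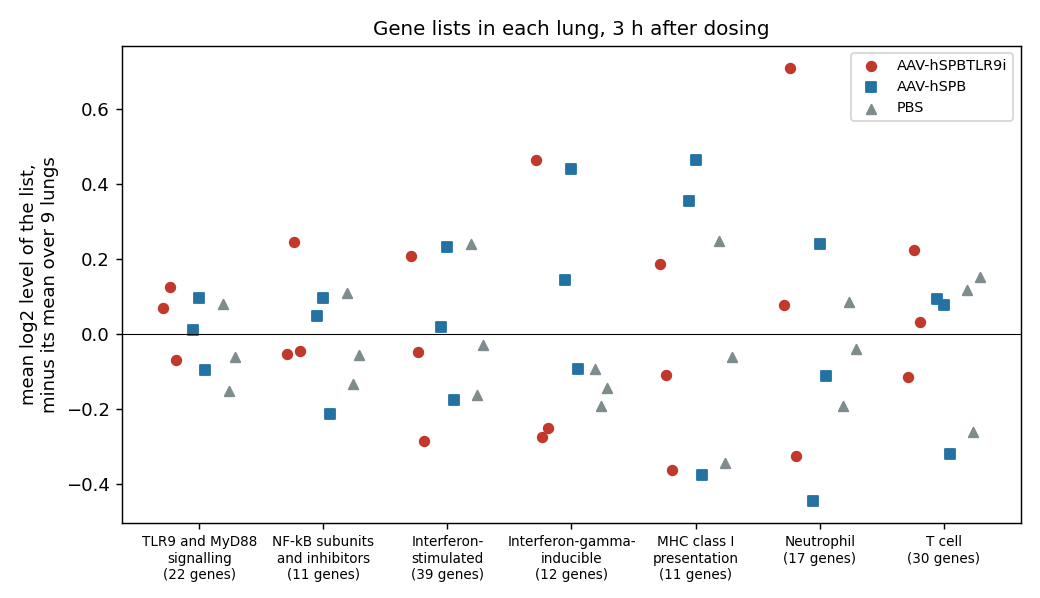
Mean log2 level of each gene list in each lung minus its mean over the 9 lungs (vertical axis), for AAV-hSPBTLR9i (red circles), AAV-hSPB (blue squares) and PBS (grey triangles). Vector groups overlap in every list shown; the highest point is AAV-hSPBTLR9i replicate 2 in the neutrophil list, 0.71 above the mean.

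Most neutrophil genes had differences above 0. Mmp9, a matrix-cutting protease stored in neutrophil granules, had 7.88, 9.31 and 8.12 in AAV-hSPBTLR9i lungs against 7.49, 7.78 and 8.19 in AAV-hSPB lungs, and differed by 0.62 (−0.24 to 1.47). Replicate 2 was the highest of these lungs, and AAV-hSPBTLR9i replicates 1 and 3 lay inside the AAV-hSPB range. Fpr1, the receptor for bacterial formyl peptides, differed by 0.72 (−0.21 to 1.64). Itgam, the CD11b chain of an integrin of neutrophils and monocytes, differed by 0.52 (−0.04 to 1.08), and Nlrp3, an inflammasome sensor, had 7.24, 8.16 and 7.25 in AAV-hSPBTLR9i lungs against 7.18, 7.05 and 7.01 in AAV-hSPB lungs (difference 0.47, −0.10 to 1.04). The Nlrp3 values did not overlap, as in 2.85% of all genes. Itgam was taken from the macrophage and monocyte list and Nlrp3 from the inflammasome and cell death list, not from the neutrophil list. Ltf, the lactoferrin of neutrophil granules, was chosen after its values were seen for its spread: it had 6.75, 8.20 and 5.98 in AAV-hSPBTLR9i lungs, 6.51, 6.45 and 5.46 in AAV-hSPB lungs, and 6.94, 10.12 and 9.12 in PBS lungs.

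Of 25 listed neutrophil chemokines and neutrophil genes, 17 were measured, 0 passed, 14 were above 0 (against 426 of all 773 genes) and 5 intervals lay inside ±1. The lowest of the list, the chemokine gene Cxcl5, given after its values were seen, differed by −0.67. The median of 0.24 was 0.06 without AAV-hSPBTLR9i replicate 2 and 0.51 without AAV-hSPBTLR9i replicate 3. Of 8 neutrophil markers 3 were measured, with Elane, a gene of immature neutrophils, under 20 counts in all 3 AAV-hSPBTLR9i lungs, and their summed normalized counts ran from 987 to 2510 in AAV-hSPBTLR9i lungs, from 907 to 1349 in AAV-hSPB lungs and from 841 to 1321 in PBS lungs. The part of neutrophil number in these values was not tested.

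No lymphocyte gene passed the test. Cd3g, a chain of the T cell receptor complex, had 8.77, 9.19 and 8.84 in AAV-hSPBTLR9i lungs against 8.61, 8.73 and 8.62 in AAV-hSPB lungs. Those lungs did not overlap, as in 2.85% of all genes, and the difference was 0.28 (−0.12 to 0.68). Cd8a and Cd8b1, the chains of the CD8 co-receptor, also did not overlap, with differences of 0.45 (0.08 to 0.81) and 0.26 (−0.15 to 0.67). Both stand on the cytotoxic and NK cell list, where 10 of 19 measured genes were below 0 and the median was −0.005. The lowest of that list was Klra1, an NK cell receptor gene, at −0.53. Cd40lg, with which helper T cells activate B cells, differed by 0.54 (0.02 to 1.05), and Cd79a, a chain of the B cell receptor, by 0.51 (−0.20 to 1.22). Of 30 measured T cell genes, 0 passed, 21 were above 0 (against 426 of all 773 genes) and the median was 0.12. The lowest of the list was the cytokine gene Il13, at −0.66. Without AAV-hSPB replicate 3 the median turned to −0.03, and the highest value on omission of a lung was 0.22, without AAV-hSPBTLR9i replicate 3. The 6 T cell markers, all measured, summed to 1840 to 2464 normalized counts in AAV-hSPBTLR9i lungs, 1602 to 1944 in AAV-hSPB lungs and 1590 to 2379 in PBS lungs.

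The genes with the smallest unadjusted p-values mostly had low counts. Ccl1, a chemokine of the receptor CCR8, had 13, 11 and 17 recovered counts in AAV-hSPBTLR9i lungs against 20, 28 and 30 in AAV-hSPB lungs. Its normalized log2 difference was −0.69 (−1.19 to −0.19; limma unadjusted p = 0.0127, adjusted p = 1.00), the smallest unadjusted p of the panel. Ccr3, the eotaxin receptor of eosinophils, had 15, 18 and 16 recovered counts in AAV-hSPBTLR9i lungs against 23, 32 and 25 in AAV-hSPB lungs and differed by −0.46 (−0.80 to −0.12). Il13ra2, a decoy receptor for interleukin-13, differed by 0.87 (0.23 to 1.50), with 16, 15 and 26 recovered counts in AAV-hSPBTLR9i lungs against 14, 12 and 10 in AAV-hSPB lungs. Bpi, whose human counterpart is a neutrophil granule protein, and Cpa3, a mast cell protease, differed by 0.49 (0.06 to 0.93) and 0.54 (−0.08 to 1.16). Il3, a growth factor gene of T cells and mast cells, differed by −0.82 (−1.57 to −0.08).

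Il23a, which codes for the p19 subunit of interleukin-23, had the lowest difference of the panel, −2.05 (−3.89 to −0.22). It had 1, 10 and 1 recovered counts in AAV-hSPBTLR9i lungs against 9, 13 and 10 in AAV-hSPB lungs and 4, 9 and 7 in PBS lungs. Every lung was under 20 counts, and AAV-hSPBTLR9i replicate 2 lay with the AAV-hSPB lungs. Without that lung Il23a differed by −3.15 and was the only gene to pass (limma adjusted p = 0.00508; the smallest adjusted p ran from 0.00508 to 1.00 over the alternatives). On this omission the AAV-hSPBTLR9i group rests on 2 lungs with 1 count each.

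Set against the vehicle, neither vector had a gene that passed. AAV-hSPBTLR9i against PBS gave 0 higher (0%) and 0 lower (0%), with 15 genes at an unadjusted limma p under 0.05 and 12 with voom, and AAV-hSPB against PBS gave 0 higher (0%) and 0 lower (0%), with 17 genes at an unadjusted limma p under 0.05 and 15 with voom. These comparisons share the PBS lungs, and each shares the lungs of its vector with the main one, so the values below are only set side by side. Gbp5, Gbp2 and Casp4 were named for their lower values in the main comparison. For each gene the gap between the vectors in the values against PBS repeats that comparison and is not a separate observation. Gbp5 differed from PBS by 0.10 in AAV-hSPBTLR9i lungs and by 1.00 in AAV-hSPB lungs. Gbp2 differed from PBS by −0.05 in AAV-hSPBTLR9i lungs and by 0.60 in AAV-hSPB lungs. For Casp4 these values were −0.03 in AAV-hSPBTLR9i lungs and 0.35 in AAV-hSPB lungs, and for Ccl2 0.83 in AAV-hSPBTLR9i lungs and 0.94 in AAV-hSPB lungs. Ccl2 had 7.10, 6.90 and 6.35 in AAV-hSPBTLR9i lungs, 6.39, 7.60 and 6.67 in AAV-hSPB lungs, and 5.95, 5.64 and 6.25 in PBS lungs. Every lung given a vector stood above every PBS lung in Ccl2, as in 8 of 773 genes (1.03%). Isg15 differed from PBS by −0.41 in AAV-hSPBTLR9i lungs and by −0.52 in AAV-hSPB lungs, and Tlr9 by 0.26 in AAV-hSPBTLR9i lungs and 0.05 in AAV-hSPB lungs.

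The same vectors were also compared in other lungs 97 days after a single dose (4 samples each, 2 female and 2 male, in mice off doxycycline since day 7), in a separate table normalized apart from the 3 h lungs. There 0 genes were higher (0%) and 0 lower (0%) in AAV-hSPBTLR9i lungs, with 8 at an unadjusted limma p under 0.05 and 6 with voom. Gbp2 had 8.77, 9.11, 8.82 and 8.46 in AAV-hSPBTLR9i lungs against 8.37, 8.45, 8.41 and 8.39 in AAV-hSPB lungs. These lungs did not overlap, as in 12 genes (1.55%) at day 97 in that direction, and the difference was 0.39 (0.01 to 0.76; limma unadjusted p = 0.0427, adjusted p = 1.00), of the opposite sign to that at 3 h. Gbp5 differed by 0.37 (−0.23 to 0.98), and the medians of the interferon-gamma-inducible and MHC class I lists were 0.27 and 0.12. Whether the 3 h and day 97 differences differ from each other was not tested across the separately normalized tables. Total recovered count also did not overlap there, at 862348 to 980805 in AAV-hSPBTLR9i lungs and 622739 to 756539 in AAV-hSPB lungs.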

How the data were processed

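Right-lung total RNA was measured by nCounter with a panel of 773 mouse genes and 12 reference genes, per the design text. The authors deposited each table as normalized log2 counts with a block of linear normalized counts that equals the log2 block raised back (largest relative difference 3.84e-09). Software, background treatment and the choice of reference genes are not given in the sources used here, and all values, those near background included, were tested as deposited. The series' other value table was not used for the 3 h samples. Recovered counts are whole multiples of 1 factor per sample within 0.02, and they gave the depth.

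The authors' log2 values of all 9 lungs at 3 h (24 at day 97) were fitted with limma (version 3.58.1, R 4.3.3; functions lmFit, contrasts.fit and eBayes) without filter or covariate. Residual degrees of freedom were 6 at 3 h and 18 at day 97. The p-values were adjusted over 773 genes by Benjamini-Hochberg, with a threshold of 0.05. Replicate numbers follow sample order. Intervals are 95% limma intervals of single genes, not adjusted for their number. Named genes were the 12 genes of smallest p in each direction, up to 3 of smallest p per list, and a fixed set of sensing, interferon, cytokine and chemokine genes; exceptions are named as such. Not all genes so named are reported here. The comparison, members and gene lists were chosen with earlier results of these data known. Alternatives were median-gene scaling, 2 filters, sex as a covariate, another prior, the compared groups alone, voom on recovered counts and omission of each lung. Any omission of a lung left the sexes unbalanced between groups. Python 3.11.15 was used for tables (pandas 2.3.3, scipy 1.17.1, numpy 2.4.6) and matplotlib 3.10.9 for plots.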

Additional observations from a re-analysis of the deposited data

Results flagged for a closer look

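Among the day 97 values screened for genes named above, 1 lung stood apart from the others of its group. For Ido1, the highest of the 4 lungs given a single AAV-hSPB dose had a log2 level of 4.64, against 3.96 to 4.02 in the other three. Chance marks about 1 in 20 groups in this way. The number of groups screened is not given here, so whether 1 such lung is more than chance gives cannot be told. Groups of 3 lungs, as at 3 h, were not screened for such lungs.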

How the results depend on the processing

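Of 16 alternatives run on the comparison of the vectors at 3 h, 15 gave 0 genes past an adjusted limma p of 0.05, and 1 gave 1 gene. That was the omission of AAV-hSPBTLR9i replicate 2, with Il23a lower (count 0 to 1 over the 9 omissions), and the same omission also gave 1 gene, 0 to 1, against PBS. Genes at an unadjusted p under 0.05 ran from 3 without the lowest 25% of genes to 28 without AAV-hSPBTLR9i replicate 1, against 12. AAV-hSPB against PBS and the day 97 comparison gave 0 under every alternative run. Scaling to the 12 reference genes, edgeR and DESeq2 were not run. Of 65 genes named and followed over the alternatives, 46 kept the sign of their difference throughout and 19 did not, none of which passed. Il13, Klra1 and Cxcl5 were not among those followed. Scaled to the median gene, Ifit1 (−0.00138), Irf7 (−0.0475), Il12b (−0.0227) and Ccl4 (−0.0395) turned negative. On omission of 1 lung at a time the sign turned in Cxcl10 (−0.0214 to 0.52), Isg15 (−0.15 to 0.39), Ifit1 (−0.23 to 0.34), Irf7 (−0.36 to 0.24), Ifnb1 (−0.20 to 0.32), Tlr2 (−0.11 to 0.37), Nfkbia (−0.14 to 0.17), Il6 (−0.82 to 0.47), Tnf (−0.16 to 0.18), Il1b (−0.14 to 0.53), Il10 (−0.0308 to 0.21), Il12b (−0.10 to 0.0908), Cxcl1 (−0.62 to 0.32), Cxcl2 (−0.0339 to 0.65), Ccl2 (−0.35 to 0.25), Ccl4 (−0.29 to 0.26), Ptgs2 (−0.78 to 0.0705), Cdh1 (−0.0912 to 0.0329) and Ager (−0.0976 to 0.0826). The cause was not tested. The median of the interferon-gamma-inducible list was −0.44 without the lowest 25% of genes, which leaves out its genes of low level. With 3 lungs per group the median half-width of the unadjusted 95% interval of a gene was 0.42 log2 units, and 20 genes were under 20 counts in all 6 lungs. No paired analysis was possible because each lung received 1 treatment and no label links a lung of 1 group to a lung of another.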
